A study of Mus musculus with 2 samples.

Results

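The B cell surface receptor and signalling genes described here are Cd79a, Cd79b, Blk, Cd22, Cr2, Fcmr, Ms4a1, Cd37 and Pax5. All probe sets whose only annotated gene is one of these 9 were taken, Fcmr under its older symbol Faim3 as well, which gave 13 probe sets of the 45037 on the array that are no array controls, and 9 of 18193 genes. The arrays measured pancreatic RNA of males of the inbred mouse strain C57BL/6J at 10 weeks of age. One group was the offspring of dams fed a methionine-deficient diet in pregnancy, and the other was the offspring of dams fed a control diet in pregnancy. All offspring were weaned at 3 weeks, had control diet from then to 10 weeks and were not themselves treated, so the comparison concerns adult transcripts after a maternal diet low in an essential amino acid that supplies methyl groups. Each group was measured as a single pool of RNA on 1 array, and neither the mice nor the litters in a pool are counted in the labels. With 1 array per group the spread between mice or arrays cannot be measured, so no difference below has a replicate check or a p-value.

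B cells recognise antigen through membrane immunoglobulin, which signals by way of the paired subunits encoded by Cd79a and Cd79b, whose tails are phosphorylated by Src family kinases such as Blk. Co-receptors set the strength of that signal. Cr2 encodes complement receptors that raise it, and Cd22 encodes a lectin that binds sialic acid and dampens it. Pax5 encodes the transcription factor that holds cells in the B lineage and activates several of the other genes. A normal pancreas holds few B cells, although lymphoid aggregates and pancreatic lymph nodes can be sampled with it.

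For 1 gene of the antigen receptor pair, Cd79a, the promoter is shown, because it is a classical example of a B cell promoter read by early B cell factor, Pax5 and Ets proteins. The 250 bases before its start lie at chr7:24897247-24897496 on the plus strand of GRCm38.p6, taken from RefSeq, and the capitals mark a match to the Ets motif CAGGAAGT at bases -56 to -49 from the start. Whether this match is a site that those proteins are known to read was not examined.

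Cd79a promoter: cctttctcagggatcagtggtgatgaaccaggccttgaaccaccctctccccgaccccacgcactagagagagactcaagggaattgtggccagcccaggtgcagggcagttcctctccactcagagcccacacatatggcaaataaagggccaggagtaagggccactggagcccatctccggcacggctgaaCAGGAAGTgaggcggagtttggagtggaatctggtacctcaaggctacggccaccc

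Promoters of 6 of the 9 genes were in the RefSeq table used, and 3 motifs were searched on both strands of their 250 upstream bases. The Ets motif was in 1 of the 6, that of Cd79a, and in 2.69% of all 32851 promoters in the table. The core of the early B cell factor motif, CCCNNGGG, was in 1 of the 6, that of Cd22, as CCCTGGGG at bases -48 to -41 from the start used by the table, and in 11.8% of all promoters. The octamer ATGCAAAT, read by Oct proteins, was in 0 of the 6 and in 1.60% of all promoters. These matches describe letters only, and the arrays do not measure binding. Only exact matches were searched, so a site that departs from the letters is missed. A motif not found, such as that of early B cell factor in Cd79a, therefore does not mean that the promoter lacks a site.

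The 9 genes did not move together. Read through the brightest probe set of each gene, 4 were lower in the methionine-deficient pool (Ms4a1, Fcmr, Cr2 and Cd79a), by 1.25 to 1.56-fold, and 5 were higher (Blk, Cd22, Cd37, Pax5 and Cd79b). Over all 18193 genes 49.4% were lower. Of the higher genes, 4 differed by at least 2-fold, none of the lower ones did, and all 4 had a control intensity under the median of the control array. No detection calls were used, so whether such values exceed background is not known. Over all 9 genes the median log2 difference (methionine-deficient minus control) was 0.20, and it was 0.01 over all genes. A level filter was set at the median of all probe sets, an intensity of 150.3 as the mean of both pools on the log2 scale. A difference of at least 2-fold on the higher side was reached by 12.8% of all genes, by 3.87% of those past the filter and by 29.4% of those below it. On the lower side the shares were 11%, 2.8% and 26.3%. The filter was passed by 6 of the 9 genes, with 2 higher and 4 lower and a median of -0.45, against a median of 0.00 over all 11848 genes past it, of which 50% were lower. Cd22 passed it only through its intensity in the methionine-deficient pool and Cr2 only through that in the control pool, so their differences are no support for either count.

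**Figure D1:**
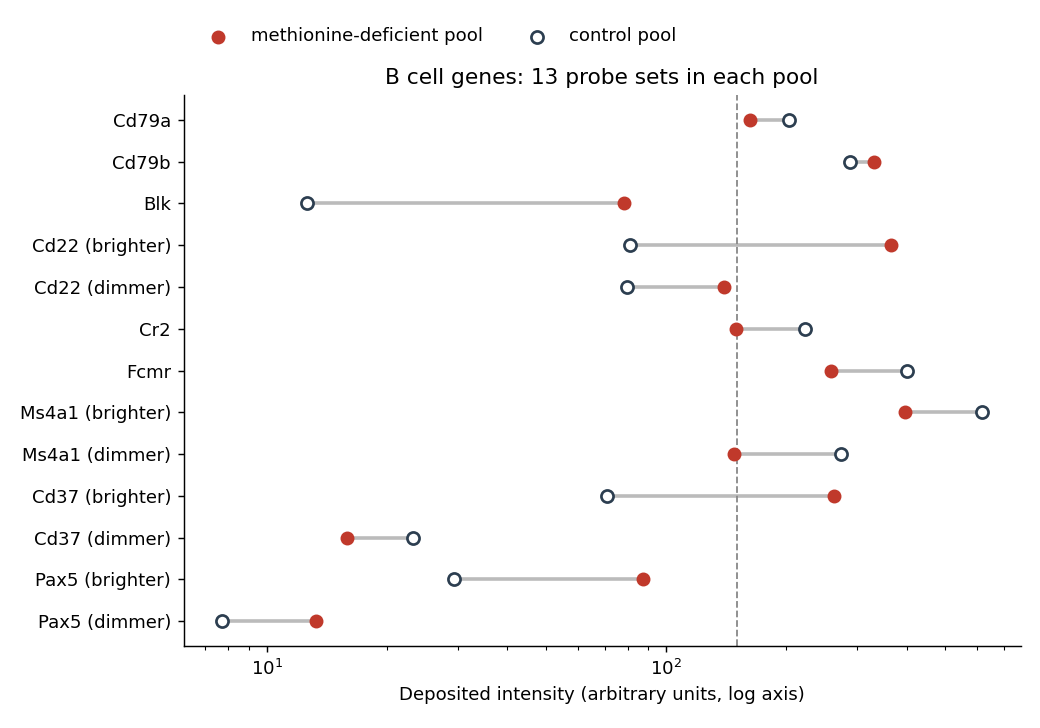
Deposited intensity (arbitrary units, log axis) of the 13 probe sets of the 9 B cell genes in the methionine-deficient pool (filled red) and the control pool (open), 1 array each, with the level filter at 150.3 as a dashed line. Of the 5 genes that were higher in the methionine-deficient pool, 4 started from a control intensity to the left of the line, while the 4 lower genes had control intensities to its right.

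Both signalling subunits of the antigen receptor had close values in the pools. Cd79a had an intensity of 162 in the methionine-deficient pool and 203 in the control pool, at ranks 23136 and 20053 from the brightest of 45037 probe sets. The log2 difference was -0.32. Cd79b had 332 in the methionine-deficient pool and 288 in the control pool, at ranks 14955 and 16119, a log2 difference of 0.20. The partners thus differed in sign, each by less than the noise of 1 probe set at its level. That noise, called probe spread here, was 0.78 for Cd79a and 0.61 for Cd79b. It is the robust SD of the log2 difference between probe sets of the same gene within 1 of 10 level bins, and it covers probe noise on these 2 arrays, not variation between mice. Blk, a Src family kinase of B cells that has also been described in pancreatic beta cells, had 78.4 in the methionine-deficient pool and 12.6 in the control pool, at ranks 30542 and 41045. Both values lay under the array medians, and the log2 difference of 2.55 stood beside a probe spread of 2.19. In the same level bin, 33.4% of probe sets reached 2-fold on the higher side and 29.5% on the lower side. The 8 islet genes past the filter, 4 higher and 4 lower, had a median log2 difference of 0.02. Their part in the Blk value was not tested.

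Of the co-receptor genes, Cd22 was higher in the methionine-deficient pool, and Cr2 differed by less than its probe noise. Cd22 had 365 in the methionine-deficient pool and 81.3 in the control pool in its brighter probe set, at ranks 14028 and 29976, a log2 difference of 2.15 with a probe spread of 0.78. Its dimmer probe set had 139 in the methionine-deficient pool and 79.6 in the control pool, a log2 difference of 0.80 with a probe spread of 1.18. Both were higher in the methionine-deficient pool, but they were designed from the same transcript record and gave sizes of 4.49-fold and 1.75-fold. Only the brighter one exceeded its probe spread, and in its level bin 12.8% of probe sets were at least 2-fold higher. Cr2, which in mice encodes both complement receptors 1 and 2 and is also made by follicular dendritic cells, had 149 in the methionine-deficient pool and 223 in the control pool, at ranks 24123 and 18961. The log2 difference of -0.57 was smaller than the probe spread of 0.78. Its 1 probe set is of a kind that can bind several transcripts of a gene.

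The other surface proteins are encoded by Ms4a1, Fcmr and Cd37, of which Ms4a1 and Fcmr were lower in the methionine-deficient pool. Ms4a1, which encodes the B cell antigen CD20, had 397 in the methionine-deficient pool and 619 in the control pool, at ranks 13259 and 9530, a log2 difference of -0.64 with a probe spread of 0.46. Its dimmer probe set had 148 in the methionine-deficient pool and 275 in the control pool, a log2 difference of -0.89 with a probe spread of 0.78. Among the 4 genes with 2 probe sets, Ms4a1 was the only one whose probe sets, both designed from the same transcript record, each differed by more than their probe spread. Fcmr, which encodes the Fc receptor that binds IgM, had 258 in the methionine-deficient pool and 400 in the control pool, at ranks 17606 and 12979. Its log2 difference of -0.63, from 1 probe set, was just larger than its probe spread of 0.61. Cd37, which encodes a tetraspanin of mature B cells that other leukocytes also carry, gave contrary readings. Its brighter probe set had 262 in the methionine-deficient pool and 70.9 in the control pool, a log2 difference of 1.87 with a probe spread of 1.18. The dimmer one had 15.9 in the methionine-deficient pool and 23.2 in the control pool, a log2 difference of -0.52 with a probe spread of 2.19. Cd37 is counted as higher here through the brighter one, but the pair gives it no settled direction.

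Pax5, the lineage factor, was dim in both pools. Its brighter probe set had 87.5 in the methionine-deficient pool and 29.4 in the control pool, at ranks 29630 and 36434, and its dimmer probe set had 13.2 and 7.70 in the same pools. The log2 differences of 1.54 and 0.71 were both within probe spreads of 2.06 and 1.45. In the level bin of the brighter probe set, differences of 2-fold or more were found on the higher side for 36.2% of probe sets and on the lower side for 34.8%. Of the 4 genes with 2 probe sets (Cd22, Ms4a1, Cd37 and Pax5), 3 had both in 1 direction, while among all 4695 genes with exactly 2 probe sets 50.6% did.

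**Figure D2:**
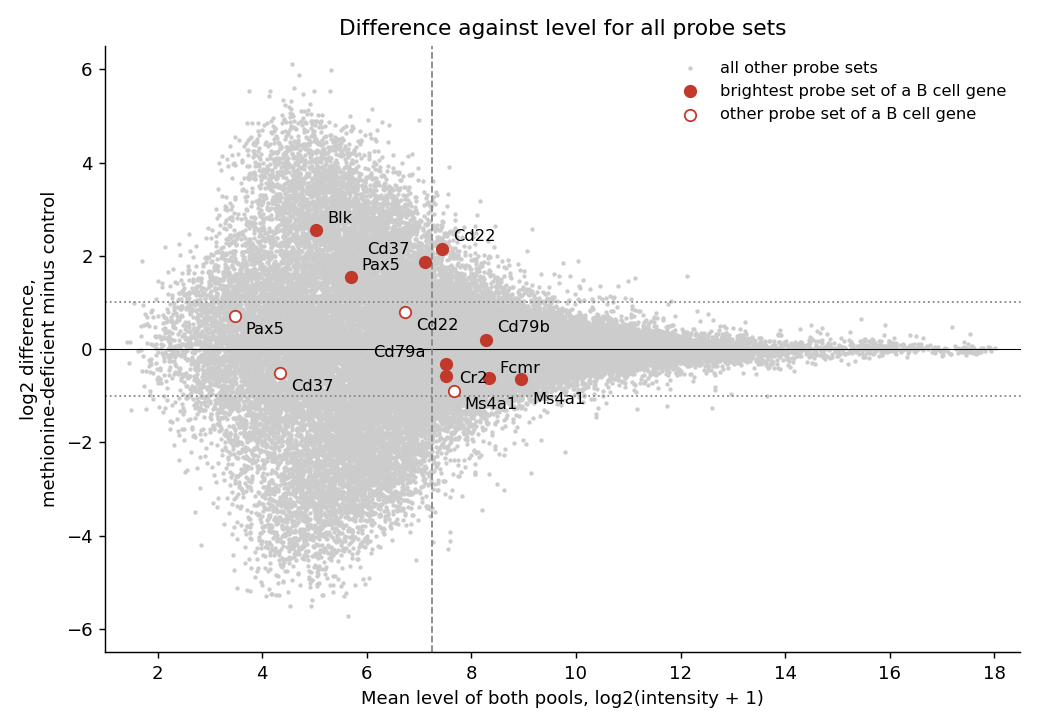
The log2 difference (methionine-deficient minus control) of every probe set against its mean level in both pools on the log2 scale, with the 9 B cell genes in red (filled for the brightest probe set of a gene, open for the others), 2-fold as dotted lines and the level filter as a dashed line. The genes at least 2-fold higher (Blk, Cd22, Cd37 and Pax5) lie above the upper dotted line, with Blk, Cd37 and Pax5 left of the dashed line and Cd22 just right of it. The brightest probe sets of the lower genes lie right of the dashed line, Cd79a and Cr2 at about the level of Cd22, and within the dotted lines.

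Whether the genes sit among bright or dim transcripts can be read from the ranks, although intensities of different probe sets depend on their probes and do not order genes by abundance. Of the 13 probe sets, 5 lay over the array median of 171 in the methionine-deficient pool and 6 over the median of 165 in the control pool. The best rank was 13259 in the methionine-deficient pool and 9530 in the control pool, and both belonged to Ms4a1. The acinar gene Cpa1, a carboxypeptidase, had ranks 37 and 39 in the same pools, near the top as is usual in pancreas, and of the 10 acinar genes measured 4 were higher and 6 lower, the median log2 difference being -0.05. Summed over the brightest probe sets, the 9 B cell genes had an intensity of 2092 in the methionine-deficient pool and 1927 in the control pool. Without Cd22 the sums were 1727 in the methionine-deficient pool and 1846 in the control pool, so the order of the pools turns without this 1 gene. Cd22 is not alone in this weight, since Cd37, with 262 and 70.9 in the same pools, also raises the sum of the methionine-deficient pool. In pooled tissue RNA, a difference in the number of B cells and one in RNA per B cell cannot be told apart.

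Other genes of B cells, in lists drawn up from general knowledge but with earlier results of these data known, also split in direction. Of 20 other B cell surface genes measured, 9 passed the level filter, with 5 higher and 4 lower and a median log2 difference of 0.06. Of the lower ones, Cd84 passed it only through the control pool, so its difference is no support for this count. At least 2-fold, 1 of the 9 was higher and 1 was lower, where the background is 3.87% higher and 2.8% lower. The higher one was Fcgr2b, the inhibitory Fc receptor for IgG on B cells and myeloid cells, with 1409 in the methionine-deficient pool and 478 in the control pool. Its log2 difference was 1.56 with a probe spread of 0.30, but only 3 of its 5 probe sets were higher. The lower one was Btla, an inhibitory receptor of B and T cells, with 187 in the methionine-deficient pool and 478 in the control pool (log2 difference -1.35, probe spread 0.61).

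Among genes downstream of the antigen receptor, 19 of 22 measured passed the filter, with 8 higher and 11 lower and a median log2 difference of -0.13. None was at least 2-fold higher and 2 were at least 2-fold lower, where all genes past the filter gave 3.87% higher and 2.8% lower. Of the 19, Lat2 passed the filter only through the control pool. Blnk, named next, and Stap1 passed it only through the methionine-deficient pool. The lower genes were the adaptor genes Dok3, with 206 in the methionine-deficient pool and 471 in the control pool, and Lat2, with 114 and 254 in the same pools. Dok3 was read through 1 probe set, and of the 3 probe sets of Lat2, 2 were lower and 1 was higher. Blnk, the adaptor that links the antigen receptor to phospholipase C, was 1.93-fold higher with a log2 difference of 0.94 and a probe spread of 0.78. Of 15 B cell transcription regulators, 12 passed the filter, with 7 higher and 5 lower and a median of 0.13. None reached 2-fold, against the same shares over all genes. Spi1 had the largest difference, with 323 in the methionine-deficient pool and 165 in the control pool in its 1 probe set (log2 difference 0.96, probe spread 0.61). Spib had a log2 difference of -0.56 and Ebf1, which acts with Pax5 in B cell commitment, had 0.45, with 3 of its 5 probe sets higher. Both were within their probe spread of 0.61.

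Immunoglobulin and plasma cell genes stood beside these values as follows. Of 9 such genes past the filter, 7 were lower and 2 higher, with a median log2 difference of -0.12. Over all genes past the filter 50% were lower. Of the lower genes, Xbp1, Derl3, Ighg3 and Mzb1 differed by less than their probe spread, as did Sdc1 of the higher genes. Xbp1 and Derl3, with log2 differences of -0.01 and -0.12, were bright in both pools. Xbp1 had ranks 142 in the methionine-deficient pool and 132 in the control pool. Which cells gave these values was not tested. At least 2-fold, 1 of the 9 was higher and 2 were lower, where all genes past the filter gave 3.87% and 2.8%. Ighm, which encodes the heavy chain of IgM, the ligand of the Fcmr product and part of the B cell antigen receptor, had 2243 in the methionine-deficient pool and 5210 in the control pool, and 9 of its 11 probe sets were lower. The log2 difference of Ighm was -1.22 with a probe spread of 0.18, against -0.63 for Fcmr and -0.64 for Ms4a1. Igha, which encodes the heavy chain of IgA, had 824 in the methionine-deficient pool and 2159 in the control pool, and all 3 of its probe sets were lower. Its log2 difference was -1.39 with a probe spread of 0.30. Jchain, which encodes the joining chain of polymeric IgM and IgA, had 2281 in the methionine-deficient pool and 4087 in the control pool. Going the other way, the kappa light chain locus Igk had 502 in the methionine-deficient pool and 241 in the control pool, with 3 of its 4 probe sets higher. Immunoglobulin genes are also used by B cells that secrete no antibody, and their part in the values of Ms4a1 and Fcmr was not tested.

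Other leukocyte lists held genes that differed in both directions. For the direction counts below, 50% of all genes past the filter were lower. The 9 pan-leukocyte genes past the filter had a median log2 difference of -0.13, with 7 lower. Of the 9, only Lsp1 and Ptprc differed by more than their probe spread. Lsp1 had the largest difference at -1.15, with a probe spread of 0.46, from 1 probe set. Ptprc, which encodes the common leukocyte antigen CD45, had 457 in the methionine-deficient pool and 685 in the control pool (log2 difference -0.58, probe spread 0.46). The second Ptprc probe set, dimmer, was higher. T cell genes had a median of -0.24 over 9 genes, with 4 higher and 5 lower, of which the co-receptor gene Cd4 had the largest difference at -1.73. Cd4 and Cd247 passed the filter only through the control pool and Cd28 only through the methionine-deficient pool. Their differences are no support for these counts. Of the CD3 subunit genes of the T cell receptor complex, Cd3e, Cd3d and Cd3g were below the filter. Cd3e had 24.5 in the methionine-deficient pool and 54.4 in the control pool. In the same pools Cd3d had 35.6 and 35.4, and Cd3g had 200 and 24.1. Cd247, another subunit gene, passed the filter with 134 and 196 in the same pools, a log2 difference of -0.55. Of its 4 probe sets 3 were lower. Macrophage and myeloid genes had a median of 0.01 over 14 genes, with 7 higher and 7 lower, and the complement gene C1qa had a log2 difference of 1.01. Its partner genes C1qb and C1qc had log2 differences of 0.46 and -0.01. Itgax passed the filter only through the control pool and Aif1 only through the methionine-deficient pool. Their differences are no support for the myeloid counts. The class II antigen presentation genes, which B cells share with dendritic cells and macrophages, had a median of -0.04 over 7 genes, of which 5 were lower. Sums were taken over the brightest probe sets of all genes measured, with those below the filter included. The 10 pan-leukocyte genes had 6537 in the methionine-deficient pool and 7493 in the control pool. The sums were 4478 and 4451 for 16 T cell genes and 13316 and 12151 for 18 myeloid genes in the same pools. Below the filter, the T cell sums hold Lat, with 272 and 22.7 in the same pools, and also Cd3e, which was lower. The T cell sums therefore do not give the order of the pools for the 9 genes past the filter.

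Cr2 is shared with follicular dendritic cells, so their genes are given beside it. Of 7 follicular dendritic and lymphoid stroma genes past the filter 6 were higher, with a median log2 difference of 0.37. Among all genes past the filter 50% were lower. Of all 10 genes of the list measured, 7 were higher and 3 lower, and over all genes 49.4% were lower. Below the filter, Il7 and Fcamr were lower and Glycam1 was higher. Cr2 was lower at -0.57, within its probe spread of 0.78, and passed the filter only through the control pool. Cxcl13, the chemokine that draws B cells into follicles, had 1094 in the methionine-deficient pool and 868 in the control pool (log2 difference 0.33, probe spread 0.30), and both of its probe sets were higher. Madcam1, an adhesion molecule of mucosal vessels and lymphoid stroma, had 311 in the methionine-deficient pool and 157 in the control pool (log2 difference 0.99, probe spread 0.78). Several genes of this list, such as Clu, are bright in other pancreatic cells as well. None of the genes in any of the lists was at an intensity of 0.

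**Figure D3:**
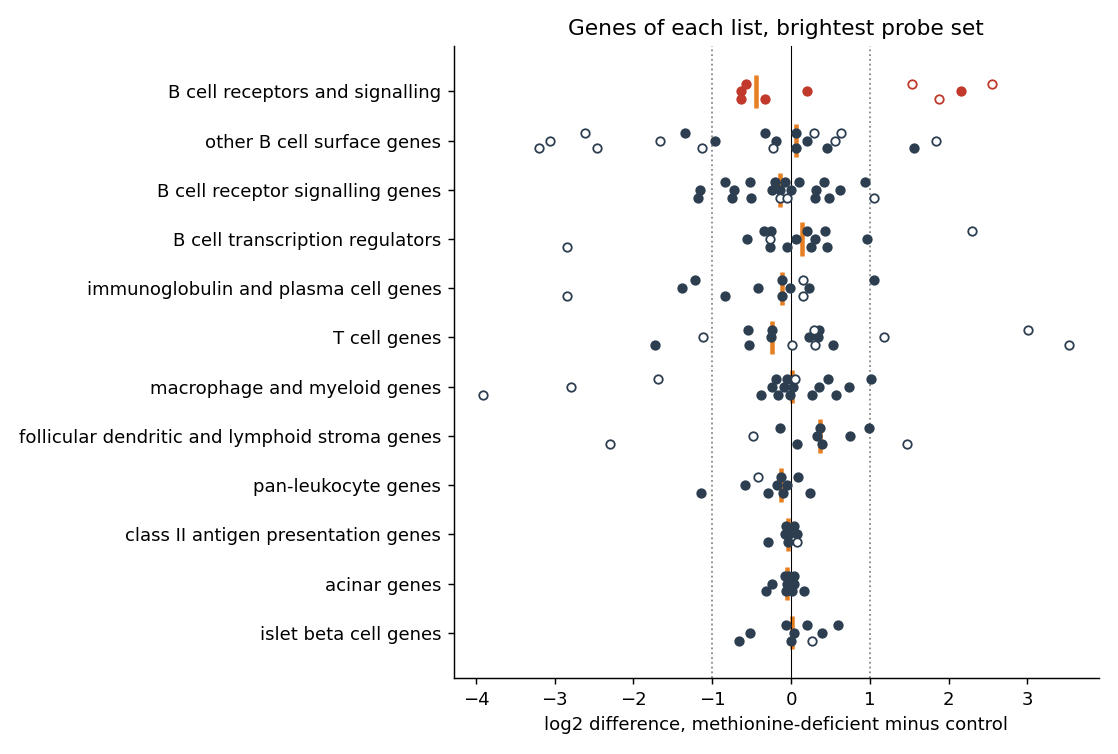
The log2 difference (methionine-deficient minus control) of the brightest probe set of each gene, 1 row per list, filled where the gene passed the level filter and open where it did not, with the median of the filled points in orange and 2-fold as dotted lines. The 9 B cell genes at the top (red) run from -0.64 to 2.55, and points past 2-fold, open or filled, occur in several other lists.

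The directions of single genes were compared under 3 other scalings of the arrays, a larger pseudocount, the mean over probe sets, a restriction to probe sets specific to a transcript, and a floor under dim intensities. The lower genes kept negative differences wherever they could be computed, from -0.77 to -0.62 for Ms4a1, -0.68 to -0.60 for Fcmr, -0.62 to -0.53 for Cr2 and -0.38 to -0.30 for Cd79a. Cd79b stayed between 0.15 and 0.20. Cd22 stayed past 2-fold, between 1.28 and 2.15. With intensities under 150.3 set to that value, Blk and Pax5 had a difference of 0, since both of their values lay under the floor, and Cd37 had 0.80.

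**Figure D4:**
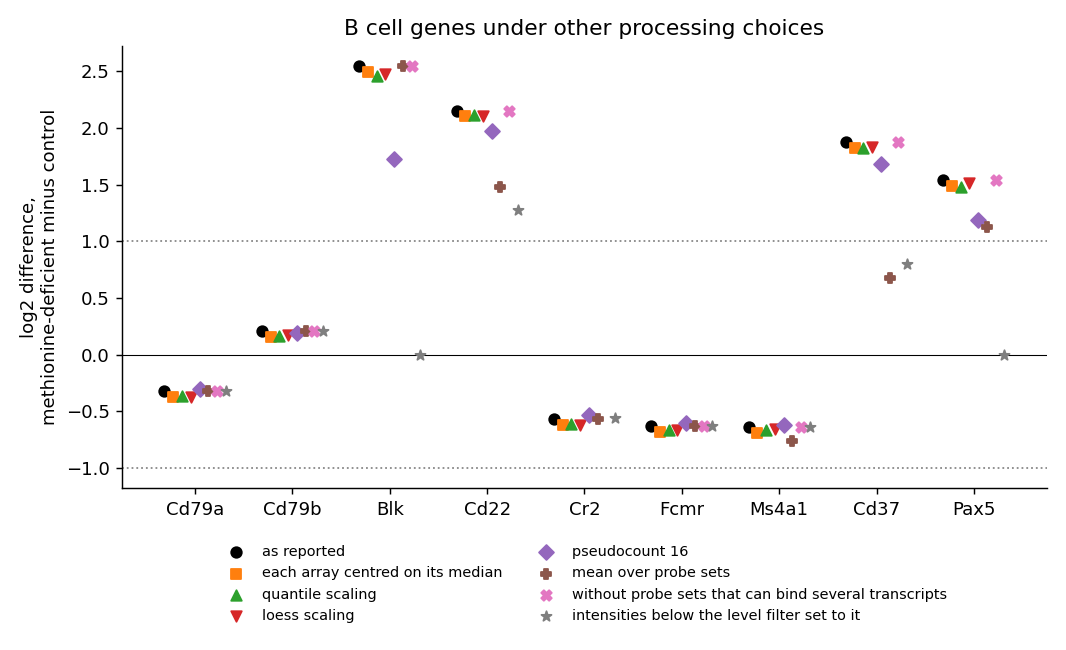
The log2 difference (methionine-deficient minus control) of each of the 9 B cell genes as reported (black) and under 7 other processing choices, with 2-fold as dotted lines. The points of Cd79a, Cd79b, Cr2, Fcmr and Ms4a1 lie close together, Cd22 runs from 1.28 to 2.15, and Blk and Pax5 drop to 0 when dim intensities are set to a floor.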

How the data were processed

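The authors deposited linear intensities per probe set for 2 arrays of pooled RNA, 1 per group. Per the labels, Trizol-extracted RNA was labelled with biotin by a 3′ IVT kit. The sources used here do not name the program or its background correction. The 2% trimmed mean was 500.003 on both arrays, so both appear to have been scaled to a common target, and a change in total RNA would not be seen. No detection calls were used, so which probe sets exceed background is unknown. The precision is limited by having 2 arrays.

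Gene symbols came from the platform annotation of 2016, and 34741 of 34945 probe sets with 1 symbol were matched to current RefSeq names. No member symbol occurred on a probe set with several genes. Intensities were taken to log2(intensity + 1), which understates changes of dim genes, and the probe set with the highest mean level stood for its gene. Differences were counted at 2-fold without a test. Ranks run over all probe sets that are no array controls. The counting and the spread estimate were tested on simulated data. The 9 members and 11 other gene lists were chosen with earlier results of these data known. Named beside the members were, from each list, the 3 largest differences and 2 brightest genes past the filter and a fixed set of markers, and not all are printed. Computations used Python 3.11.15 with numpy 2.4.6, pandas 2.3.3 and statsmodels 0.14.6. Some genes of the lists were not analysed here.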

Additional observations from a re-analysis of the deposited data

How the results depend on the processing

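The median log2 difference of the B cell genes past the level filter was -0.45, and it was 0.20 with no level filter, because Blk, Cd37 and Pax5 then entered. It stayed between -0.64 and -0.32 under the other alternatives. The number at least 2-fold different was 1 (Cd22) as reported, 4 with no level filter, 0 with a filter at the 75th percentile, which only Ms4a1 passed, 0 with the mean over probe sets, where Cd22 fell below the filter, and 3 at 1.5-fold. The number of lower genes was 4, and 1 with the 75th percentile filter. Other scalings, the pseudocount of 16, 3-fold and probe sets specific to a transcript kept these counts within 1.5 times. Cr2 could not be read in the last of these. Of 62 values of single genes under alternatives, 59 moved by less than their probe spread and 3 by more, those of Blk and Cd22 with the floor, an alternative added after seeing the data, and that of Cd37 with the mean over probe sets (0.68). No single gene changed sign. No paired analysis was possible because each group is 1 pool on 1 array. Signal over background limits Blk, Cd37, Pax5 and the control value of Cd22.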

Other observations

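Some B cell genes below the level filter showed the mirror image of Cd22, bright in the control pool and dim in the methionine-deficient pool. They were chosen after their values were seen. Cd72, an inhibitory co-receptor of B cells, had an intensity of 48.0 in the methionine-deficient pool and 298 in the control pool. Tnfrsf13c, the receptor for the B cell survival factor BAFF, had 55.0 in the methionine-deficient pool and 307 in the control pool. Cd83, an activation marker of B cells and dendritic cells, had 29.9 in the methionine-deficient pool and 284 in the control pool. The transcriptional coactivator gene Pou2af1, which B cells need to form germinal centres, had 37.3 in the methionine-deficient pool and 275 in the control pool. Each was read through a single probe set. Probe spreads were 1.18 for Cd72, Tnfrsf13c and Pou2af1 and 1.78 for Cd83, beside log2 differences of -2.61, -2.46, -2.85 and -3.20. Over all 20 other B cell surface genes measured, whatever their level, 7 were at least 2-fold lower and 2 at least 2-fold higher, where all genes gave 11% lower and 12.8% higher. Of these, 6 of the lower and 1 of the higher lay below the level filter, where 26.3% of genes were at least 2-fold lower and 29.4% higher. The 9 receptor and signalling genes had 0 lower and 4 higher by the same count.

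Cd40, a receptor through which T cells activate B cells, was among the higher ones, chosen after its values were seen, with 165 in the methionine-deficient pool and 45.6 in the control pool in its brightest probe set. Its other 2 probe sets were lower.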
